A study of Mus musculus with 16 samples.

Results

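Splenic CD11b+ myeloid cells from allogeneic cell recipients treated with CTLA4-Ig and erythropoietin (EPO) were compared with those from untreated naive mice, gene by gene, on a NanoString panel of myeloid innate immunity. The samples were chosen by title, the 4 with EPO and the 4 naive mice, which make 8 of the 16 mice deposited. Naive and treated mice were both wild-type C57BL/6, and the treated ones had received 20000000 T cell–depleted BALB/c splenocytes, 150 µg of CTLA4-Ig (abatacept) on day 2 and 5000 U/kg of EPO (epoetin alfa) every day. Cells were taken on day 7 by positive selection for CD11b. The question was which of the 734 genes measured in treated mice sat at naive levels, which stayed apart from them and which lay beyond them, on the log2 values as deposited and after each mouse's median was subtracted. The remaining 8 mice had received spleen cells alone or with CTLA4-Ig but no EPO, 4 of each, and the CTLA4-Ig mice without EPO served to sort genes into those that differed from naive mice without EPO and those that did not. The article's results give the route of cell injection as i.v. and the cells as CD11b+CD11c–, whereas its methods and the sample records describe a CD11b selection alone and the records give the route as i.p. One protocol field assigns code D to naive mice and code FN to spleen cells alone, the opposite of the titles and treatment fields. Mice titled naive carry FN codes, and grouping here followed title and treatment.

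CD11b, the αM integrin chain, marks neutrophils, monocytes, eosinophils, part of the dendritic cells and part of the macrophages of the spleen. Red pulp macrophages clear aged erythrocytes and dying cells, neutrophils and monocytes supply the first wave of inflammatory mediators, and MHC class II–bearing cells present donor antigen to T cells. CTLA4-Ig binds CD80 and CD86 and blocks CD28 costimulation, while EPO acts through a receptor that signals by JAK2 and STAT5. Neither *Epor*, which encodes that receptor, nor *Csf2rb*, which encodes its partner chain CD131, was among the genes measured.

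Recovered counts summed to 562760 to 843830 per naive mouse (median 793245) and 655838 to 827739 per treated mouse (median 736301). The scaling factor contained in the deposited values was 1.27 to 1.85 in naive mice and 0.56 to 0.76 in treated mice, with no overlap. The median log2 value was 7.26 ± 0.08 (SD, n = 4) in naive mice and 6.75 ± 0.06 in treated mice. The 10 most counted genes took 42.1% to 59.8% of the counts in naive mice and 30.3% to 33.9% in treated mice. *S100a9*, which encodes a calcium-binding protein of neutrophils, took 25.2%, 15.7%, 13.7% and 17.1% in the naive mice and 4.23%, 8.29%, 4.88% and 5.67% in the treated mice. Every naive share of *S100a9* lay above every treated share.

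A gene was taken to differ when its adjusted *P* in limma, corrected over all 734 genes, was below 0.05, and differences are log2 values, treated minus naive. On that basis 520 genes (70.8%) differed between the groups as deposited, 67 (9.13%) higher and 453 (61.7%) lower in treated mice. After median subtraction 417 (56.8%) differed, 168 (22.9%) higher and 249 (33.9%) lower. The balance of direction depended on the scaling, since 12.9% of the differing genes were higher as deposited, 40.3% after median subtraction, 79.1% when counts were divided by their total and 53.9% after quantile normalization. The median log2 difference of all genes was −0.74, −0.22, 0.46 and 0.01 on these 4 scalings. On the deposited, median-subtracted and total-count scales alike, 67 genes (9.13%) were higher and 90 (12.3%) lower in treated mice. A further 112 genes were lower as deposited but higher by total count. As deposited, 461 genes had no overlap between the 8 mice, and 363 had none after median subtraction. Against the same naive mice, the CTLA4-Ig mice without EPO differed in 506 genes (68.9%) as deposited and in 449 (61.2%) after median subtraction. The naive mice are shared by both contrasts, so the values stand side by side and were not correlated. The shares over all genes are the base beside which each list count in the following paragraphs stands. A gene counted as at naive level when the 95% interval of the difference lay within 1.5-fold, and as back at naive level if it also differed from naive without EPO. With the D-coded mice as the reference in place of those titled naive, 371 genes differed as deposited (168 higher and 203 lower) and 410 after median subtraction (130 higher and 280 lower). The scaling factor of the D-coded mice was 0.63 to 0.76 and their median log2 value 6.53 ± 0.04, against 0.59 to 0.79 and 6.54 ± 0.09 in the CTLA4-Ig mice without EPO.

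**Figure D1:**
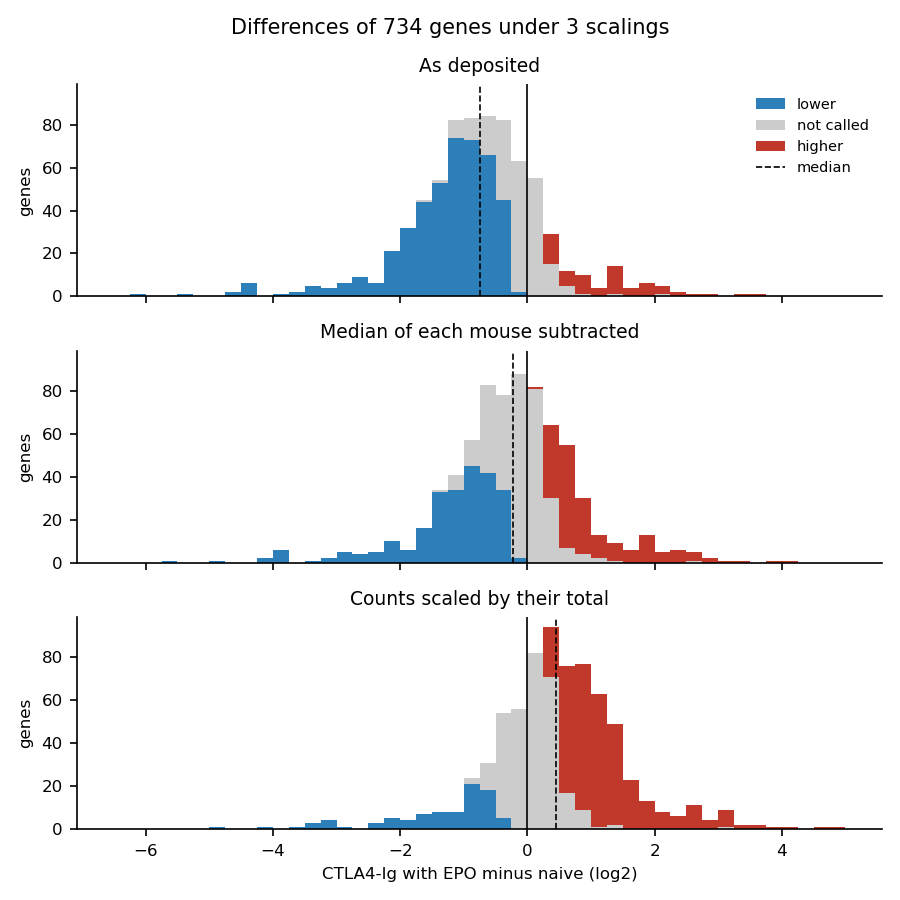
Log2 difference of all 734 genes (treated minus naive) under each scaling. The median of all genes moves from −0.74 as deposited to 0.46 by total count.

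*Itgam*, which encodes the CD11b used for selection, fell from 11.42 ± 0.15 in naive mice to 9.56 ± 0.29 in treated mice (log2, SD, n = 4). Its values were 11.59, 11.41, 11.23 and 11.45 in the naive mice and 9.18, 9.77, 9.48 and 9.79 in the treated mice. Every treated mouse lay below every naive mouse, and the difference of −1.86 (adjusted *P* = 7.42e-08) was −1.34 after median subtraction and −0.67 by total count. *Itgax*, which encodes CD11c, was lower by 0.78 as deposited (adjusted *P* = 0.00112) and did not differ after median subtraction (−0.26). In bulk RNA, fewer cells of a type and less RNA per cell cannot be told apart.

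The largest fall was in *Acod1*, whose enzyme makes itaconate in activated macrophages and neutrophils. Its values were 10.72, 10.55, 10.24 and 10.21 in the naive mice and 4.39, 4.70, 3.81 and 4.06 in the treated mice, a difference of −6.19 (adjusted *P* = 5.98e-10). All 4 naive values lay above all 4 treated values, and the CTLA4-Ig mice without EPO were also low (4.78 on average), not different from the mice with EPO (adjusted *P* = 0.172). *Emp1*, which encodes an epithelial membrane protein, fell by 5.41 (adjusted *P* = 4.79e-13), and *Cxcr2*, the chemokine receptor that draws neutrophils from marrow, fell by 4.48. *Il1b*, which encodes the cytokine IL-1β, stood at 14.43, 13.93, 13.74 and 13.91 in the naive mice and 9.44, 9.44, 9.13 and 9.001 in the treated mice. The lowest naive value of *Il1b* was above the highest treated value, and the difference was −4.75 (adjusted *P* = 1.25e-11). The IL-1 decoy receptor gene *Il1r2* fell by 4.64, from 12.15, 11.63, 11.26 and 11.50 to 7.19, 7.36, 6.89 and 6.53, without overlap. *Il1r2* was also lower than in CTLA4-Ig mice without EPO, by 3.08 (adjusted *P* = 1.23e-08). *Cxcl2*, a neutrophil chemoattractant, fell by 4.41, the histidine decarboxylase gene *Hdc* fell by 4.35 and the MHC class I–like gene *H2-Q10* fell by 4.46. Each of these 8 falls also passed after median subtraction and by total count.

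The largest rise with all mice in the fit was in *Clec1b*, which encodes the podoplanin receptor CLEC-2 and was 7.83, 7.81, 7.96 and 7.61 in the treated mice against 0.89, 4.86, 5.74 and 5.41 in the naive mice. The difference of 3.58 (adjusted *P* = 0.000639) was 2.47 without naive mouse 1, in which the count was 1, the lowest of any gene measured. Without that mouse the rise of *Clec1b* lay below those of *Retnla* (3.74), *Ccl24* (2.91), *Tspan8* (2.85), *Cxcl13* (2.64) and *Enpp2* (2.63). *Retnla*, an IL-4– and IL-13–induced macrophage product, was 5.48, 4.34, 4.74 and 4.04 in the naive mice and 7.97, 8.21, 8.15 and 8.12 in the treated mice. The groups did not overlap, and *Retnla* rose by 3.47 (adjusted *P* = 5.21e-08), of which the step from CTLA4-Ig without EPO measured 2.58 (adjusted *P* = 2.30e-06). *Cd163*, which encodes the haptoglobin-hemoglobin scavenger receptor, was 7.89, 7.98, 7.70 and 8.46 in the naive mice and 10.21, 10.10, 10.34 and 10.10 in the treated mice. Treated values of *Cd163* were all above naive values, a rise of 2.18 (adjusted *P* = 4.71e-08) against 1.67 over mice without EPO. *Ccl24*, the eosinophil chemoattractant eotaxin-2, rose by 2.83, the tetraspanin gene *Tspan8* by 2.63 and the lysophosphatidic acid–producing enzyme gene *Enpp2* by 2.45. *Cxcl13*, which guides B cells to follicles, rose by 2.35 with a wide spread in treated mice (SD 1.00), and *Pdzk1ip1*, which encodes a small membrane protein, rose by 2.17. *Ccl24*, *Tspan8*, *Enpp2* and *Pdzk1ip1* were each lower in CTLA4-Ig mice without EPO than in naive mice as deposited, by 1.205, 0.86, 0.65 and 1.36. After median subtraction only *Pdzk1ip1* remained lower without EPO (−0.64), while *Ccl24* (−0.48), *Tspan8* (−0.14) and *Enpp2* (0.07, with its sign turned) did not differ. All 8 rises also passed after median subtraction and by total count.

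**Figure D2:**
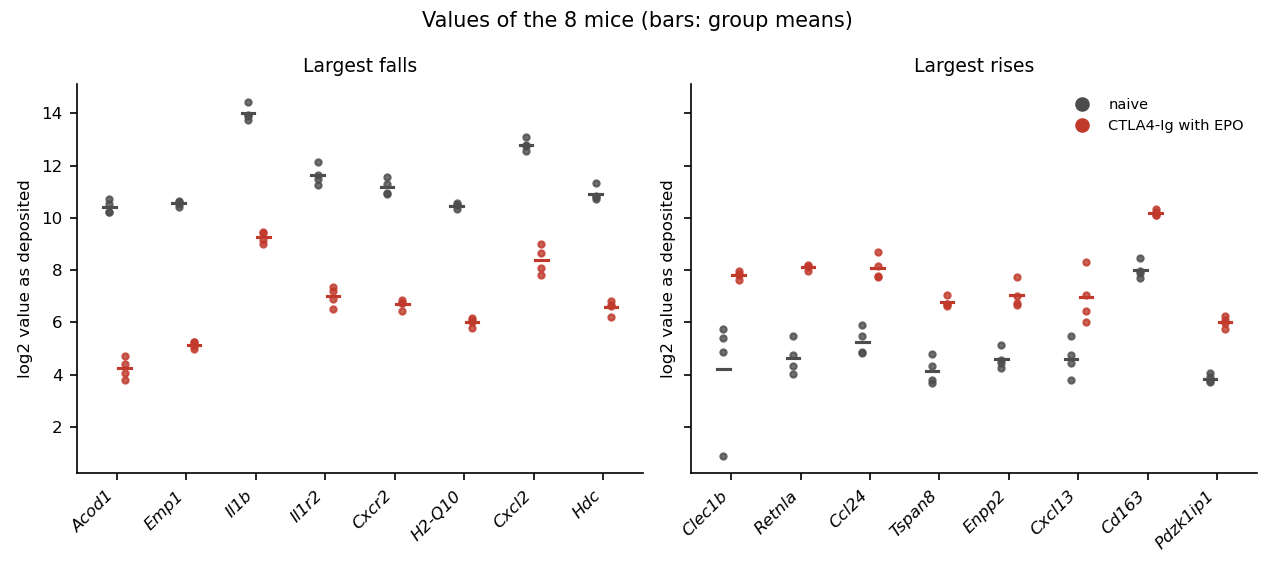
Deposited log2 values of the genes with the largest rises and falls in each naive mouse and each treated mouse. The lowest value plotted is *Clec1b* in naive mouse 1 (0.89).

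Promoters of 2 of the risen and 2 of the fallen genes are printed for reference (GRCm38.p6, from NCBI RefSeq annotation, 300 bases each, plus strand), because EPO receptor signaling activates STAT5, which binds the spaced palindrome TTCNNNGAA. Capitals mark that pattern, which reads the same on either strand. It was present in 2726 of 32851 promoters of the same length (8.30%), in 62 of 555 panel genes with a promoter entry (11.2%), in 5 of 44 genes higher on 3 scalings (11.4%) and in 12 of 72 lower on 3 scalings (16.7%). The windows are *Retnla* at chr16:48842359-48842658, *Cd163* at chr6:124304401-124304700, *Emp1* at chr6:135362681-135362980 and *Il1r2* at chr1:40085843-40086142. *Emp1* held the pattern 120 and 22 bases before the start site in this entry and not in its other entry, and *Il1r2* held it 111 bases before. In *Retnla* and *Cd163* these letters do not occur within the window. The 4 were chosen with the matches known, and the pattern was found in 2 of the 8 largest falls and in 0 of the 6 with an entry among the 8 largest rises, too few to compare. A match describes the sequence, and binding was not measured. *Socs2*, *Lpl*, *Ccl24*, *Vcam1* and *C1qa* had no promoter entry.
Retnla: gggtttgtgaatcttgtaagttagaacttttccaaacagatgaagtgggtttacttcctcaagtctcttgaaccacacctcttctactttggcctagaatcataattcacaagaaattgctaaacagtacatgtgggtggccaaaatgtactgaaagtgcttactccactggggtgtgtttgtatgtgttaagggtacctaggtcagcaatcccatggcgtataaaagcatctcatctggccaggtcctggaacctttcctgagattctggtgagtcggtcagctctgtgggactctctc
Cd163: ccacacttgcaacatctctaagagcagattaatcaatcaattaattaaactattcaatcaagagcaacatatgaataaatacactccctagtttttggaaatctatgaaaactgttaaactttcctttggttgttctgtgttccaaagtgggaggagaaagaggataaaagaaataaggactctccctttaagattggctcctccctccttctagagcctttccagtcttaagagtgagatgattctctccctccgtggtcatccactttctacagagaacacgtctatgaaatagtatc
Emp1: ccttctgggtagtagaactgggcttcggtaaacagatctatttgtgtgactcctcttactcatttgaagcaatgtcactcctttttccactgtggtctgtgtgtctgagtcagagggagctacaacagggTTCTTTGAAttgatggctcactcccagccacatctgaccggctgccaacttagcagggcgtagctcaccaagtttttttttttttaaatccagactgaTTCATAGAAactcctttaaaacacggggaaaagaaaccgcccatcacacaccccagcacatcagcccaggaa
Il1r2: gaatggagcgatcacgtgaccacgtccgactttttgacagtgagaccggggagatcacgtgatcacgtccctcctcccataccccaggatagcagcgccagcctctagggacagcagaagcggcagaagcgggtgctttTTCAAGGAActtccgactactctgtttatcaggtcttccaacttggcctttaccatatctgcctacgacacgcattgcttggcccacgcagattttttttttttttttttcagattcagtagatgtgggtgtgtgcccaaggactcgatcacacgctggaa

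Most neutrophil markers were low in treated mice. Of 23 markers of mature neutrophils 14 were on the panel, and all 14 were lower as deposited (median −2.93 against −0.74 over all genes), 13 after median subtraction (median −2.41) and 11 on 3 scalings. The formyl peptide receptor gene *Fpr1* was lower as deposited (−0.74) but higher by total count (0.46). Their summed share of counts was 50.7%, 31.9%, 28.9% and 34.9% in the naive mice and 8.72%, 16.6%, 11.1% and 12.8% in the treated mice. All naive shares were above all treated shares, and *S100a9* was the most counted member. The lowest count of any gene in the table was 1, so an absent marker could not be seen as 0. The granulocyte colony-stimulating factor receptor gene *Csf3r* fell by 4.33, the triggering receptor gene *Trem1* by 3.97 and the gelatinase gene *Mmp9* by 3.66. In CTLA4-Ig mice without EPO *S100a9* was lower still, by 1.65 (adjusted *P* = 0.00354). The 6 genes of granule proteins and granulocyte progenitors stood apart from this list, with 1 lower as deposited, 4 higher by total count (median 1.01) and none differing on 3 scalings. By total count 340 of all 734 genes were higher. *Mpo*, the myeloperoxidase gene, did not differ from naive as deposited (−0.21, adjusted *P* = 0.656), was higher by total count (0.98, adjusted *P* = 0.0255) and as deposited was 2.88 above CTLA4-Ig mice without EPO (adjusted *P* = 3.74e-05). Without naive mouse 1 the deposited difference of *Mpo* from naive turned to 0.15 and did not pass. The neutrophil list moved with the differences described above, and its part in them was not tested.

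Most monocyte markers were lower by smaller amounts as deposited and after median subtraction, but not by total count. All 7 classical monocyte genes on the panel were lower as deposited (median −1.17), 6 after median subtraction and 2 on 3 scalings. Those 2 were *Ccr2*, the receptor for monocyte exit from marrow (−2.01), and the lipopolysaccharide coreceptor gene *Cd14* (−2.27). The chitinase-like gene *Chil3*, the most counted of the list, was lower as deposited (−1.15, adjusted *P* = 0.0122) and did not differ after median subtraction (−0.63). The summed share of the list was 3.15% ± 0.14 in naive and 2.99% ± 0.40 in treated mice. For 5 genes of nonclassical monocytes, 4 were lower as deposited and 1 on 3 scalings, the transcription factor gene *Cebpb* (−1.996). By total count 5 of the 7 classical genes did not differ (median 0.02). Of the 5 nonclassical genes 3 did not differ by total count, 1 was higher and 1 lower (median 0.04).

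Red pulp macrophage markers were high in treated mice. The list also holds *Siglec1* and *Marco*, genes of marginal zone macrophages, so it is not limited to the red pulp. Of 17 markers 12 were on the panel, of which 10 were higher as deposited (median 1.65), all 12 after median subtraction (median 2.17) and 10 on 3 scalings. They made up 0.81%, 1.10%, 1.14% and 1.31% of counts in the naive mice and 6.36%, 5.39%, 8.68% and 6.96% in the treated mice. No share overlapped between groups, and *Vcam1* was the most counted member. These shares are on the total-count scale, on which 340 of all 734 genes were higher. *Vcam1*, an adhesion molecule of these macrophages, rose by 2.04 (adjusted *P* = 2.01e-09), 1.72 of it above the mice without EPO. The 3 genes of complement C1q, which opsonizes dying cells, rose by 1.85 (*C1qa*), 1.71 (*C1qb*) and 1.84 (*C1qc*), whereas none of the 3 differed between naive mice and CTLA4-Ig mice without EPO as deposited (adjusted *P* = 0.411, 0.132 and 0.456). After median subtraction all 3 were already above naive without EPO, by 0.56, 0.51 and 0.60. As deposited, with EPO the 3 exceeded the mice without it by 2.01, 1.91 and 1.96. The phosphatidylserine receptor genes *Mertk* and *Timd4* rose by 1.49 and 1.44, and the mannose receptor gene *Mrc1* by 1.60. Across 8 genes of apoptotic cell uptake and C1q, 5 were higher and 2 lower as deposited (median 1.47), 6 were higher and none lower after median subtraction, and 5 were higher on 3 scalings. Those 5 (*C1qa*, *C1qb*, *C1qc*, *Mertk* and *Timd4*) are all in the macrophage list too, so this count is not separate from it. Outside that list the scavenger receptor gene *Stab1* (−1.10) and the phosphatidylserine bridging gene *Pros1* (−0.57) were lower as deposited only, with *Pros1* passing in 6 of 8 fits with a mouse left out and higher by total count (0.62). The scavenger receptor gene *Cd36* did not differ as deposited (0.43) and was higher after median subtraction (0.95) and by total count (1.63). *Csf1r*, the macrophage colony-stimulating factor receptor gene, was at naive level as deposited (0.17, adjusted *P* = 0.25) and above it after median subtraction (0.69). The red pulp list moved with the rises, and its part in them was not tested.

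**Figure D3:**
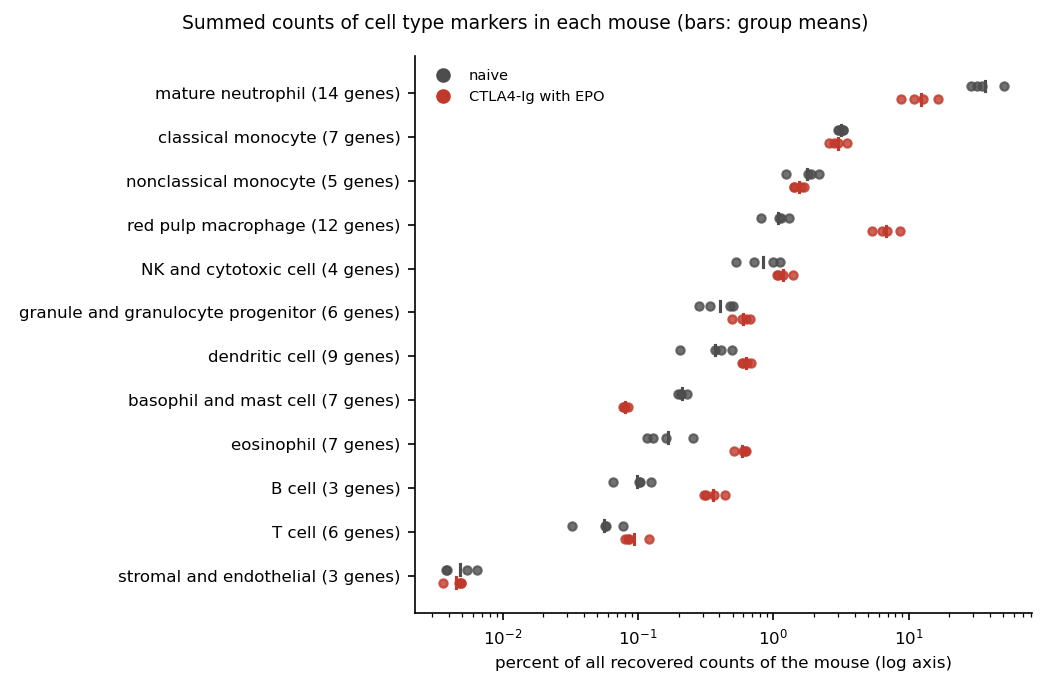
Percent of recovered counts taken by the markers of each cell type in each naive and treated mouse, with group means as bars. Neutrophil markers average 36.6% in naive and 12.3% in treated mice, and red pulp macrophage markers 1.09% and 6.84%.

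Genes of lipid uptake and handling were mostly higher. As deposited 6 of 9 were higher and 1 lower (median 0.43), after median subtraction 8 were higher and 1 lower, and on 3 scalings 6 were higher and 1 lower. The fatty acid–binding protein gene *Fabp4* rose by 1.84, the liver X receptor gene *Nr1h3* by 1.56 and the nuclear receptor gene *Pparg* by 1.40. *Lpl*, which encodes lipoprotein lipase, was 6.56, 6.88, 6.41 and 6.33 in the naive mice and 8.09, 8.22, 8.36 and 8.12 in the treated mice. All treated values of *Lpl* exceeded all naive ones (1.65, adjusted *P* = 4.26e-08), and CTLA4-Ig mice without EPO were below naive at 4.55 ± 0.17.

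Of 14 genes tied to alternative activation of macrophages, 5 were higher and 5 lower as deposited (median −0.39), and 5 were higher and 3 lower after median subtraction. On 3 scalings *Retnla*, *Mrc1*, *Cd163*, *Ccl24* and *Pparg* were higher and the β-glucan receptor gene *Clec7a* was lower (−2.88). *Mrc1* and *Cd163* are in the macrophage list too and *Pparg* in the lipid list, so this count is not separate from them. Eosinophil markers had 1 of 7 higher and 1 lower on 3 scalings. The eotaxin receptor gene *Ccr3* rose by 1.30 and the lectin gene *Siglecf* fell by 2.58. As deposited 5 of the 7 did not differ (median −0.13). The summed share was 0.17% ± 0.06 in naive and 0.59% ± 0.06 in treated mice with *Prg2* most counted. That share is on the total-count scale, on which 6 of the 7 were higher (median 1.06), against 340 of all 734 genes. *Prg2*, an eosinophil granule protein gene, did not differ as deposited (0.75, adjusted *P* = 0.127) and was higher after median subtraction (1.27), passing there in 6 of 8 fits with a mouse left out. For basophils and mast cells, 4 of 7 genes were lower as deposited and only *Hdc* on 3 scalings, shares close to the 61.7% and 12.3% of all genes.

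Inflammatory products were predominantly low, alongside the neutrophil markers (36.6% of naive and 12.3% of treated counts on average), whose part in the differences of this paragraph was not tested. Of 17 acute inflammatory genes 14 were lower and none higher as deposited (median −1.65), 12 were lower and 1 higher after median subtraction, and 7 were lower on 3 scalings. The prostaglandin synthase gene *Ptgs2* fell by 2.75, the cytokine gene *Osm* by 3.30 and the chemokine gene *Ccl3* by 1.65 as deposited, the last not passing by total count (−0.45). *Tnf* was lower as deposited (−1.23, adjusted *P* = 1.62e-05) and after median subtraction (−0.71), and did not differ by total count (−0.04). Among 13 genes of the IL-1 family and the inflammasome, 8 were lower and 2 higher as deposited (median −1.03), 7 lower and 3 higher after median subtraction, and 5 lower and 2 higher on 3 scalings. The 8 lower as deposited were a share near the 61.7% of all genes. The inflammasome sensor gene *Nlrp3* fell by 3.13, the receptor antagonist gene *Il1rn* by 3.30 and the accessory receptor gene *Il1rap* by 3.45. The 2 higher on 3 scalings were *Il1a*, which rose by 1.40, and *Il18*, which rose by 1.32. Without EPO *Il18* was 0.61 below naive as deposited and did not differ after median subtraction (0.11). Of 9 immediate early genes 8 were lower as deposited (median −1.48), 7 after median subtraction and 3 on 3 scalings.

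Among 8 genes of NF-κB signaling and feedback, 6 were lower as deposited (median −0.80), against 61.7% of all genes (median −0.74). After median subtraction 4 were lower and 2 higher, and only the IκBζ gene *Nfkbiz* was lower on 3 scalings (−1.82). *Nfkb1*, the p105 subunit gene, was lower as deposited (−0.44), did not differ after median subtraction (0.08) and was higher by total count (0.76). All 9 STAT and SOCS genes on the panel were listed. *Socs2*, which encodes a feedback inhibitor of cytokine receptors, was the only one higher (1.81), and it was higher on 3 scalings. The other 8 were lower as deposited, 5 after median subtraction and *Socs3* alone on 3 scalings (−2.06). *Stat5a* was lower by 0.47 as deposited but higher by 0.72 by total count, so its direction depended on scaling. Of 7 interferon response genes 6 were lower as deposited, 2 were lower and 1 higher after median subtraction, 5 were higher and none lower by total count, and none kept a direction on 3 scalings. Of all 734 genes, 340 were higher and 90 lower by total count.

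MHC class II genes sat close to naive levels as deposited, with 1 of 8 higher, 2 lower and a median of −0.06, and 4 were higher after median subtraction (median 0.46). By total count all 8 were higher (median 1.14), against 340 of all 734 genes. In all, 6 of the 8 were back at naive level as deposited and 3 after median subtraction, against 10.1% and 13.1% of all genes. *Cd74*, the invariant chain gene and most counted member, was 14.80, 15.15, 15.05 and 14.72 in the naive mice and 14.67, 14.62, 14.68 and 14.73 in the treated mice. The ranges overlapped at the edge, the difference was −0.25 (adjusted *P* = 0.094), and without EPO *Cd74* was 0.80 above naive. *Cd74* by total count was instead 0.94 higher with EPO than in naive mice, as the class II list took 6.66% ± 1.85 of naive and 13.2% ± 1.11 of treated counts. Of 11 MHC class I and peptide loading genes 9 were lower and 1 higher as deposited, and 2 were lower and 2 higher after median subtraction. On 3 scalings the lipid-presenting *Cd1d1* was higher (0.86) and *H2-Q10* lower. Costimulatory and coinhibitory ligands, 10 in all, had 7 lower as deposited, near the 61.7% of all genes. After median subtraction 4 were lower and 3 higher, against 33.9% and 22.9% of all genes, and none differed on 3 scalings. Of the CTLA4-Ig ligands, *Cd86* did not differ as deposited (0.05) and was higher after median subtraction (0.57), while *Cd80* was lower on both (−1.21 and −0.69) and level by total count (−0.01).

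B cell markers were higher on all scales, all 3 of 3 as deposited (median 0.77). Their share was 0.0654%, 0.103%, 0.126% and 0.102% in the naive mice and 0.437%, 0.363%, 0.308% and 0.317% in the treated mice, with *Ms4a1*, the CD20 gene, most counted. *Ms4a1* rose by 0.64 (adjusted *P* = 0.00046) yet stayed 0.76 below the mice without EPO. The shares of the B cell list did not overlap, but they are on the total-count scale. On that scale the list median was 1.97, and 340 of all 734 genes were higher. The part of B cells in other differences was not tested. Of 6 T cell genes 1 was higher and 3 lower as deposited, 2 higher and 1 lower after median subtraction, and the CD40 ligand gene *Cd40lg* was higher on 3 scalings (0.99). Among 4 genes of NK and cytotoxic cells 3 were lower as deposited, against 61.7% of all genes, and none on 3 scalings. Of 9 dendritic cell genes 1 was higher and 5 lower as deposited, near the shares over all genes (9.13% and 61.7%), with the cross-presenting cell receptor gene *Clec9a* higher on 3 scalings (0.77). *Pf4*, the platelet factor 4 gene, rose by 1.41. Of 3 stromal and endothelial genes 2 were lower as deposited, near the 61.7% of all genes, and none on 3 scalings. No erythroid marker of 10 was on the panel.

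None of the first 3 cell division genes differed as deposited and all 3 were higher after median subtraction (median 0.98). Without naive mouse 1, *Birc5* (0.95, adjusted *P* = 0.00164) and *Ccnb2* (0.65, adjusted *P* = 0.0123) were higher as deposited too. In a wider list of 10, 3 were higher as deposited (median 0.31), 9 after median subtraction and 3 on 3 scalings. Among those were the replication licensing gene *Mcm5* (0.62) and the kinesin gene *Kif20a* (0.66), which passed as deposited in 7 of 8 fits with a mouse left out. *Top2a*, the topoisomerase gene, did not differ as deposited (0.11) and was 1.18 above the mice without EPO (adjusted *P* = 0.000338). Of 14 matrix, protease and wound genes 8 were lower as deposited, a share no larger than the 61.7% of all genes, 6 after median subtraction and 4 on 3 scalings, among them the urokinase receptor gene *Plaur* (−2.42) and the vascular growth factor gene *Vegfa* (−2.15). *Mmp8* (−2.65) and *Mmp9* (−3.66), also among the 4, are in the neutrophil list too, so this count is not separate from it.

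**Figure D4:**
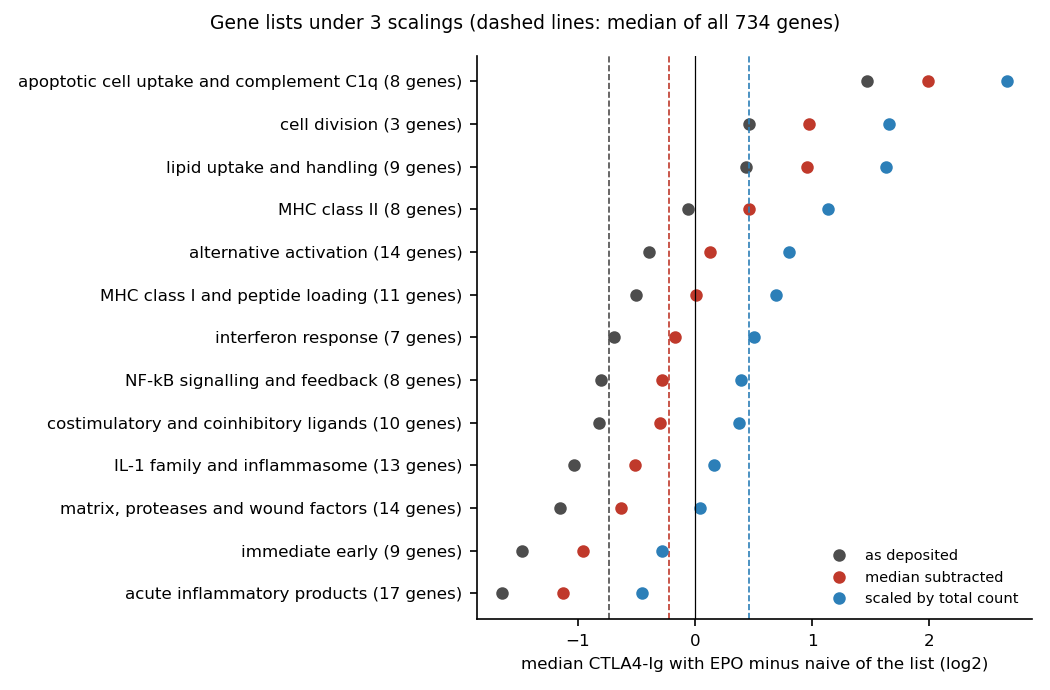
Median log2 difference (treated minus naive) of each pathway list under 3 scalings, with dashed lines at the medians of all genes (−0.74, −0.22 and 0.46). Acute inflammatory products lie lowest and apoptotic cell uptake highest.

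The 734 genes were then counted by class. As deposited 74 genes were back at naive level and 37 at naive level throughout, and after median subtraction 96 and 39. Of those, 10 of the 74 and 9 of the 37 still differed from naive by the test. Still apart, on the same side with and without EPO, were 345 genes as deposited (22 higher and 323 lower) and 247 after median subtraction (98 higher and 149 lower). Past naive, on the opposite side from mice without EPO, were 37 and 44. Apart with EPO only, differing from naive with EPO but not without it, were 119 and 108, and 122 and 200 were unresolved. On both scales 171 genes were still apart and 92 unresolved, whereas 11 were back at naive level, 9 past naive, 13 apart with EPO only and 0 at naive level throughout.

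Among the 345 genes still apart as deposited, 135 differed between mice with and without EPO, 64 nearer naive with EPO and 71 farther. After median subtraction 118 of 247 did, 64 nearer and 54 farther. Of the 119 apart with EPO only as deposited, 89 differed between these mice and 30 did not. Of the 74 back at naive level as deposited, 64 differed between them, 63 nearer naive with EPO and 1 farther, and 10 did not. After median subtraction 87 of the 96 differed and 9 did not.

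**Figure D5:**
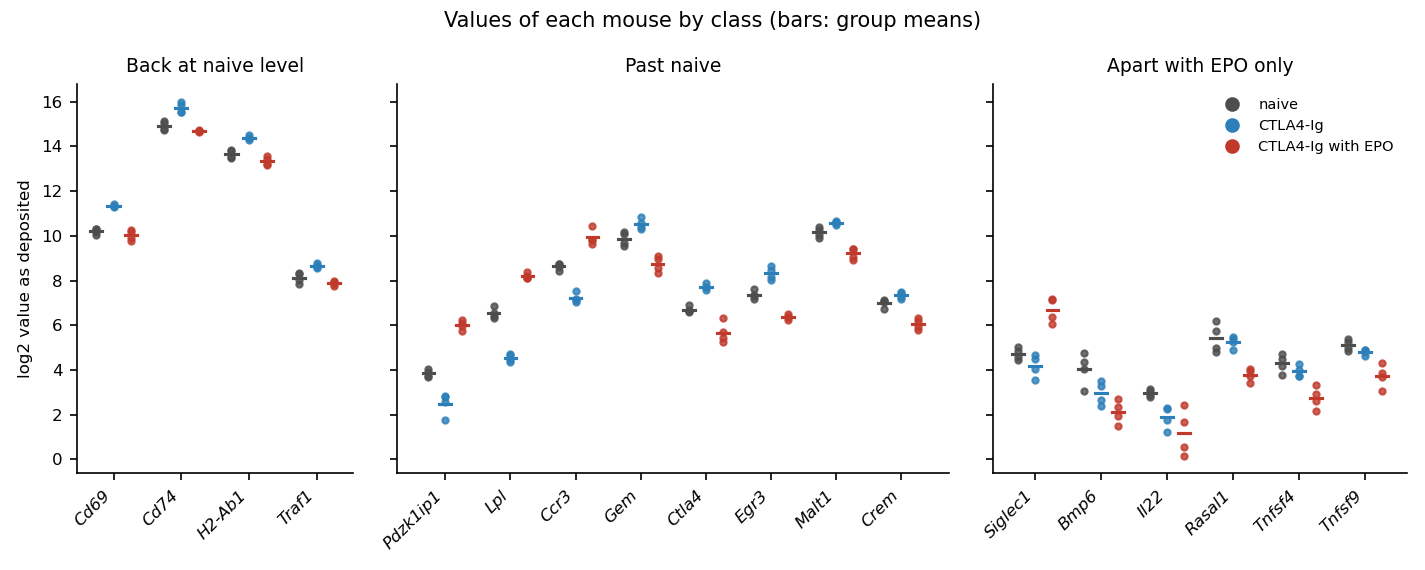
Deposited log2 values of named genes back at naive level, past naive and apart with EPO only in each naive mouse and each CTLA4-Ig mouse without and with EPO, with group means as bars. *Lpl* lies below naive without EPO and above it with EPO.

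The genes back at naive level on both scales included *Cd69*, a lymphocyte and myeloid activation antigen gene that was 1.15 above naive without EPO. It was 10.03, 10.31, 10.29 and 10.17 in the naive mice and 10.19, 10.24, 9.76 and 9.88 in the treated mice. Naive and treated values of *Cd69* overlapped as deposited (−0.18, adjusted *P* = 0.17). After median subtraction they did not, and *Cd69* was higher within the bound (0.34, adjusted *P* = 0.0221). As deposited the step from CTLA4-Ig without EPO was −1.33 (adjusted *P* = 2.55e-07). *H2-Ab1*, a class II β chain gene, was 0.72 above naive without EPO and differed by −0.32 with it (adjusted *P* = 0.0178), within the bound although the test was passed. The signaling adaptor gene *Traf1* was 0.54 above naive without EPO and did not differ with it as deposited (−0.23, adjusted *P* = 0.0674), but was higher after median subtraction (0.28, adjusted *P* = 0.049). With each of the 8 mice left out, the passes of *Cd69* and *Traf1* after median subtraction held in 5 and 2 fits, and that of *H2-Ab1* as deposited in 4. By total count *Cd69*, *H2-Ab1* and *Traf1* were each higher than naive, by 1.01, 0.87 and 0.96, so they sat at naive level as deposited and after median subtraction only.

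Past naive on both scales, *Pdzk1ip1*, *Lpl* and *Ccr3* were low without EPO and high with it. In the opposite direction the GTPase gene *Gem* (−1.13), the coinhibitory receptor gene *Ctla4* (−1.02), the transcription factor gene *Egr3* (−1.004), the paracaspase gene *Malt1* (−0.95) and the cyclic AMP modulator gene *Crem* (−0.95) were high without EPO and low with it. By total count none of these 5 differed from naive (0.07 to 0.25). With each mouse left out, *Ctla4* passed after median subtraction in 1 of 8 fits, *Egr3* in 3, *Crem* in 6 and *Gem* and *Malt1* in all 8. *Siglec1*, the sialoadhesin gene of metallophilic macrophages, was apart with EPO only (1.95, adjusted *P* = 1.19e-05) and exceeded the mice without EPO by 2.49. The growth factor gene *Bmp6* (−1.93) and the cytokine gene *Il22* (−1.77) were in the same class, passing after median subtraction in 6 and 4 of the 8 fits, but mice with and without EPO did not differ in them (adjusted *P* = 0.156 and 0.257). The costimulatory ligand genes *Tnfsf4* (−1.53) and *Tnfsf9* (−1.38) and the GTPase-activating gene *Rasal1* (−1.64) did differ between those mice, by −1.18, −1.08 and −1.45. By total count *Bmp6*, *Il22*, *Rasal1*, *Tnfsf4* and *Tnfsf9* were not different from naive. Differences in opposite directions on the deposited and median-subtracted scales occurred in the kinase gene *Btk* (−0.30 and 0.22), the transcription factor gene *Nfyc* (−0.26 and 0.26), the proteasome activator gene *Psme2* (−0.24 and 0.28) and the signaling gene *Smad1* (−0.23 and 0.29). When each of the 8 mice was left out in turn, the differences passed as deposited and after median subtraction in 8 and 3 fits for *Btk*, 8 and 7 for *Nfyc*, 4 and 7 for *Psme2* and 2 and 4 for *Smad1*.

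The 20 genes of the article's heatmap had 4 higher and 10 lower as deposited, 8 higher and 6 lower after median subtraction, and 4 higher (*Retnla*, *Mertk*, *Cd163* and *Mrc1*) and 2 lower (*Il1b* and *Clec5a*) on 3 scalings. *Ccr7*, which guides dendritic cells to lymph nodes, was at naive level as deposited (0.14, adjusted *P* = 0.427), was 1.66 above naive without EPO, and remained above naive after median subtraction (0.66). *Tnfaip3*, a brake on NF-κB, was 1.45 below naive with EPO as deposited and did not differ without it (0.06). After median subtraction it was 0.94 below naive with EPO and 0.78 above without it, and by total count it did not differ with EPO (−0.26, adjusted *P* = 0.296).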

How the data were processed

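Normalized log2 values of 734 genes in 16 mice, which the authors computed from nCounter counts in limma, were used as deposited and again after subtracting each mouse's median. Dividing the values by a single factor per mouse returned whole counts (tolerance 0.001), and these gave the depth, 562760 to 912328 counts per mouse, and the total-count scale. Of all values 99 (0.843%) were at a count of 1. How the authors derived their factor is not given.

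With limma 3.58.1 in R 4.3.3, the means of the 4 groups were estimated from all 16 mice together. Genes differed at a two-sided Benjamini-Hochberg adjusted *P* below 0.05 over all 734 genes. The test set each group difference against the spread between mice of the same group, estimated over all 16 mice. The naive level bound was 1.5-fold on a 95% interval. The procedure was tested on simulated data before use. Tables and plots used pandas 2.3.3, matplotlib 3.10.9, scipy 1.17.1 and numpy 2.4.6 under Python 3.11.15.

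Genes were named by a fixed rule: the 8 largest rises and falls passing on both scales without overlap, the largest in each class, those of opposite direction, the heatmap genes and the 4 most abundant members of each list. Another 26 genes described were picked from the lists with their values in view, outside this rule. A few genes that met the rule are not described, and they still count in the list totals. Members and lists were chosen with earlier results of these data known. The wider cell division list, the STAT and SOCS list, the toll-like receptor list, the requirement of 3 scalings, the minimum mean count of 20 and the per-gene counts of fits with a mouse left out were added after the values were seen. Alternatives covered the mice in the fit, moderation, weights, filters, scaling, the bound, the test, each mouse left out and the reading of the sample codes. Panel symbols matched the annotation directly in 724 cases, by synonym in 9 and not at all in 1.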

Additional observations from a re-analysis of the deposited data

Results flagged for a closer look

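In 7 of 280 groups of 4 mice (2.50%), where about 1 in 20 would be picked out by chance, a single mouse stood apart from its group in a named gene. Of these 7, 4 were in naive mouse 1. That mouse correlated with the other naive mice at r 0.966 to 0.977, against 0.983 to 0.987 among the others. Its 10 most counted genes took 59.8% of counts, against 42.1% to 46.2% in the other naive mice. It had 17 genes at a count of 1, against 6 to 8, and the cause was not tested. *Irf8* in naive mouse 1 was 0.89, at the lowest count of any gene (1), against 9.64 to 9.87 in the other naive mice. The difference of *Irf8* from naive was 2.01 (adjusted *P* = 0.227), and −0.20 without that mouse. *Hdc* in naive mouse 1 was 11.33 against 10.73 to 10.82, *Nlrp3* in the same mouse 11.17 against 10.94 to 10.97, and *Crem* there 6.72 against 7.06 to 7.11. In naive mouse 2, *Cd86* was 9.19 against 9.42 to 9.46 and *Smad1* 7.46 against 7.49 to 7.50. In treated mouse 3, *Tspan8* was 7.05 against 6.63 to 6.70.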

How the results depend on the processing

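Only 4 mice per group from 1 series were compared, the scaling cannot be settled from these values, and 153 genes had a mean count under 20 in both groups. Of these 153, 95 were lower and 0 higher as deposited, and 33 were lower and 1 higher after median subtraction. Without genes of low count, 426 genes differed as deposited (67 higher and 359 lower).

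Genes at naive level, 111 as deposited, numbered 63 by total count, 255 with a 2-fold bound and 7 with a 1.2-fold bound. After median subtraction 135 became 324 with the 2-fold bound and 9 with the 1.2-fold bound. Genes past naive numbered 20 by total count against 37 as deposited, and against 44 after median subtraction there were 23 with the 2-fold bound. Of 520 genes differing as deposited 157 kept their direction on 3 scalings. The changes with the bound follow from its width. Total-count scaling adds 1.19 to the difference of every gene, and the cause of the changed counts on that scale was not tested.

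Leaving out each mouse gave, as deposited and after median subtraction, 494 to 525 and 379 to 405 differing genes, 93 to 109 and 117 to 134 at naive level, 317 to 349 and 222 to 249 still apart, 33 to 41 and 36 to 48 past naive, and 109 to 145 and 94 to 127 apart with EPO only.

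With replicate number as a block, 531 and 433 genes differed, 122 and 144 were at naive level, 340 and 251 still apart, 39 and 49 past naive, and 120 and 107 apart with EPO only. Mice of the same number were not alike (pairing r −0.129 to −0.0159), so no pairing was assumed.

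Over the whole panel 112 genes were lower as deposited but higher by total count. With the total-count shift these genes named by the rule, lower as deposited, were higher: *Btk* 0.90, *Cd247* 0.83, *Cd274* 0.50, *Cd83* 0.72, *Fscn1* 0.39, *H2-Ab1* 0.87, *H2-K1* 0.86, *Jun* 0.83, *Nfkb1* 0.76, *Nfyc* 0.93, *Nkg7* 0.645, *Psmb8* 0.77, *Psme2* 0.96, *Ripk2* 0.90, *Smad1* 0.97, *Stat6* 0.34, *Tapbp* 0.51, *Tgfb1* 0.75 and *Tlr8* 0.63. After quantile normalization so were *Btk* 0.58, *H2-Ab1* 0.50, *H2-K1* 0.48, *Jun* 0.43, *Nfkb1* 0.44, *Nfyc* 0.49, *Psmb8* 0.41, *Psme2* 0.55, *Smad1* 0.33, *Tapbp* 0.21, *Tgfb1* 0.35 and *Tlr8* 0.32. The cause of the quantile changes was not tested.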

Other observations

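Toll-like receptor genes divided by member. Of the 12 on the panel, 2 were higher and 7 lower in treated mice as deposited (median −0.46), near the 61.7% of all genes that were lower, 4 higher and 4 lower after median subtraction, and 2 higher and 3 lower on 3 scalings. *Tlr1* (0.49) and *Tlr12* (0.53) rose, the latter passing as deposited in 2 of 8 fits with a mouse left out, while *Tlr2* (−2.06), *Tlr5* (−1.90) and *Tlr6* (−2.002) fell. *Tlr4*, the lipopolysaccharide receptor gene, was at naive level as deposited (−0.08) after standing 1.99 below it without EPO, and after median subtraction it was past naive (0.44).

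Spread among mice was compared in 524 genes with a mean count of at least 20 in both groups. The median SD was 0.20 in naive and 0.18 in treated mice, and 4 genes in naive mice but none in treated mice exceeded an SD of 1. Besides *Irf8* and *Clec1b*, the widest in naive mice were *Epx*, *Ctsg*, *Mpo* and *Prg2*, all granule genes and each higher in mice 1 and 4 than in mice 2 and 3. *Ly6g*, a neutrophil surface antigen gene, was the widest in treated mice (SD 0.62).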
